A study of Mus musculus with 12 samples.

Results

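The clustered protocadherins were the 59 rows, of 23893 in the count table, whose gene symbol begins with Pcdha, Pcdhb, Pcdhga, Pcdhgb, Pcdhgc or Pcdhac followed by a number. They comprised 14 alpha, 22 beta and 22 gamma rows and Pcdha4-g, which RefSeq gives as a synonym of a transcript that runs from the alpha into the gamma cluster. All members lie in one stretch of mouse chromosome 18 (mm9, NCBIM37 assembly), with the alpha cluster at chr18:37089939-37347311, the beta genes at chr18:37424652-37681073 and the gamma cluster at chr18:37833989-38001527. The symbols alone chose the members, and 58 of the 59 rows had a mean of at least 1 CPM (counts scaled to a common library size) over the 12 libraries.

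RNA was sequenced from mouse cortical neuron cultures (strain C57BL6, from embryos), in 4 groups of 3 libraries. The same range of embryonic age is given for the cultures of all groups, and the age of each single culture is not stated. By the methods, every culture was Top1 fl/fl, and the cells labelled wild-type (WT) or Top1 cKO differed in the lentivirus given at 3 days in vitro (DIV): tdTomato alone, or tdTomato-P2A-CRE, both under the CaMKIIα promoter. CRE removes a floxed exon of Top1, so the deletion and the presence of CRE cannot be told apart here. From DIV 15 the cells received 300 nM topotecan (Topot), which traps topoisomerase 1 on DNA, or 0.003% DMSO as vehicle (Veh), and were harvested 3 days later, at DIV 18. Infection reached 85 to 90% of cells, and uninfected neurons and non-neuronal cells of the culture kept an intact Top1. In bulk RNA, fewer cells of a type and less RNA per cell cannot be told apart.

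Clustered protocadherins are cadherin-like adhesion proteins that let a neuron recognise its own branches and those of its neighbours. In the alpha and gamma clusters, each isoform has its own promoter and a large first exon coding for the extracellular part, and that exon is spliced to constant exons that all isoforms of the cluster share. Beta genes have a single exon each and no constant exons. Promoter choice depends on CTCF and cohesin, which loop a promoter to a distant enhancer, and on DNA methylation. Most isoforms are chosen at random in single neurons. The C-type isoforms at the 3′ end of the alpha and gamma clusters (Pcdhac1, Pcdhac2, Pcdhgc3, Pcdhgc4 and Pcdhgc5) are instead used broadly or by particular cell types, and Pcdhgc4 is known for the survival of neurons.

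Top1 was 117, 164 and 124 CPM in the WT-Veh libraries and 129, 140 and 130 CPM in WT-Topot, against 30.1, 44.0 and 27.1 CPM in Top1 cKO-Veh and 29.1, 37.5 and 28.4 CPM in Top1 cKO-Topot. The libraries separated by genotype as labelled, with no overlap. Total counts ranged from 1730164 to 4583777 per library, at which 3 counts are 0.65 to 1.73 CPM. The neuron markers summed to between 5577 and 7293 CPM per library and the astrocyte markers to between 629 and 3724 CPM, while the 7 microglial markers summed to at most 17.8 CPM. Astrocyte markers were highest in replicate 1 of each group. They were lower after topotecan in each pair of the same number, at 1330, 640 and 630 CPM in WT-Topot against 3308, 1551 and 1273 CPM in WT-Veh, and at 1749, 1041 and 629 CPM in Top1 cKO-Topot against 3724, 1513 and 1315 CPM in Top1 cKO-Veh. The 8 interneuron markers summed to 562, 830 and 1039 CPM in WT-Topot against 803, 1765 and 1584 CPM in WT-Veh. Their median log2 fold change was −1.02. At an unadjusted edgeR p under 0.05, 5 were lower and 2 higher, against 1715 and 1406 of all 23893 rows. The 2 were Dlx1 at 0.87 and Lhx6 at 0.84. None of the 8 passed a false discovery rate of 0.01 in edgeR without the replicate number as a block. DESeq2 called 1 lower, against 621 of all rows. With the block, 5 were called lower and 2 higher, against 5.0% and 3.24% of all rows. The interneuron markers summed to 930, 1376 and 1323 CPM in Top1 cKO-Topot against 1222, 1439 and 1348 CPM in Top1 cKO-Veh, which overlap. Nes, 1 of 8 progenitor markers, was higher in WT-Topot (1.22) and Top1 cKO-Topot (1.77) than in WT-Veh (edgeR adjusted p = 0.00167 and 3.63e-04). The median log2 fold change of the 8 progenitor markers was only −0.033 and 0.281 in these comparisons. The part of these markers in the results given here was not tested.

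The alpha rows held almost the same count. In each library the lowest alpha row was 94.5 to 96.1% of the mean alpha row, and the 12 rows that are not C-type spread by only 2.48 to 6.56% above the lowest. Gamma rows had the same form, the lowest at 94.7 to 96.0% of the mean row. A read on the constant exons was therefore counted in every row of its cluster, and the 14 alpha rows are close to 1 measurement, as are the 22 gamma rows. The count was split into a shared part, the lowest row of the cluster in each library, and an excess for each isoform, its row minus the shared part. Pcdha8 was the lowest alpha row in 12 of 12 libraries and Pcdhgb8 the lowest gamma row in 10 of 12. An excess thus holds the reads on exons that are not shared, less those of the lowest isoform, and its fold change can differ from that of the isoform's own transcript.

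**Figure D1:**
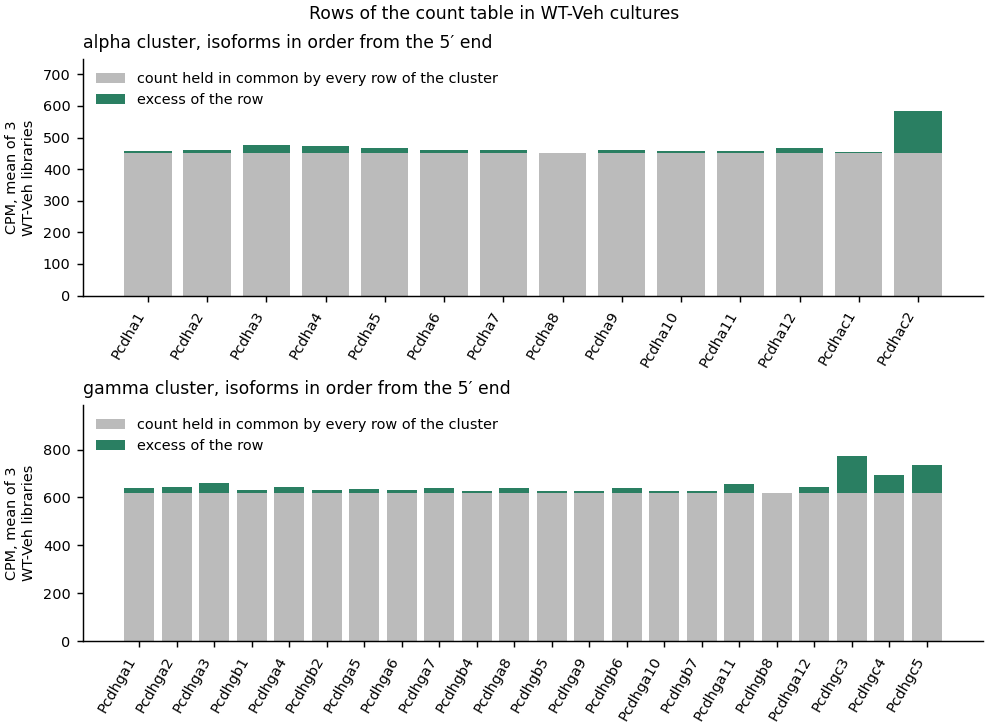
Mean CPM of the 3 WT-Veh libraries (vertical axis) for each alpha (top) and gamma (bottom) row, in order from the 5′ end of the cluster. Grey bars are the count all rows of a cluster share, 451 CPM for alpha and 620 CPM for gamma, and green bars the excess of each row, which is tall only for Pcdhac2, Pcdhgc3, Pcdhgc4 and Pcdhgc5.

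Alpha protocadherins were lower in topotecan-treated Top1 cKO cells than in either group of WT cells. The shared alpha count was 443, 480 and 431 CPM in WT-Veh, 370, 406 and 318 CPM in WT-Topot, 280, 291 and 218 CPM in Top1 cKO-Veh, and 193, 203 and 188 CPM in Top1 cKO-Topot. The libraries of the 4 groups did not overlap in any of the 6 pairs of groups. In Top1 cKO-Topot cells the shared count was lower than in WT-Veh cells (log2 fold change −1.21, standard error 0.167, edgeR adjusted p = 1.02e-04). All 14 alpha rows were called lower there at a false discovery rate (FDR) of 0.01, against 1.21% of all rows. These rows share most of their reads, so their common direction adds nothing to the shared count. Their median log2 fold change was −1.20, where the median over all genes of at least 1 CPM was 0.018. Against WT-Topot cells, which had the same drug, Top1 cKO-Topot cells had a lower shared alpha count, by −0.91 on the log2 scale (adjusted p = 7.79e-04, standard error 0.16), and again 14 alpha rows were called lower, against 1.03% of all rows.

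Deletion alone gave a log2 fold change of −0.78 for the shared alpha count in Top1 cKO-Veh against WT-Veh cells (standard error 0.170), which missed the threshold of 0.01 with an adjusted p of 0.0498. No member was called by edgeR's test in this comparison, where 0.126% of all rows were called lower and 0.0460% higher. Libraries did not overlap for 14 alpha rows, all lower, against 10.3% of all genes of at least 1 CPM. At an unadjusted p under 0.05 there were 14 alpha rows lower, against 1152 of all 23893 rows. DESeq2 also called 14, against 160 of all rows lower. With the replicate number as a block, the shared alpha count was called lower (adjusted p = 1.52e-10), together with 14 alpha rows, against 2.95% of all rows. Each Top1 cKO-Veh library was below the WT-Veh library of the same number, by 0.66 to 0.98 on the log2 scale.

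Topotecan alone gave smaller differences of the shared alpha count, in the same direction for both genotypes. The log2 fold change was −0.30 (standard error 0.164) in WT-Topot against WT-Veh cells, with an adjusted p of 0.494, and 0.0563 with the block. No clustered protocadherin row was called by edgeR with or without the block, by DESeq2, or at an unadjusted p under 0.05, where edgeR called 2.04% of all rows lower and 0.682% higher, and 5.0% and 3.24% with the block. Of 1915 genes longer than 100 kb, 17.9% were called lower in that comparison, 8.67% in Top1 cKO-Topot against WT-Veh, and 0.522% in Top1 cKO-Veh against WT-Veh. The alpha locus spans 257 kb and the gamma locus 167.5 kb, and the shared gamma count was above WT-Veh in each WT-Topot pair of the same number. The part of gene length in these values was not tested. Libraries did not overlap for 13 of the 14 alpha rows, all lower in WT-Topot, against 13.2% of all genes of at least 1 CPM lower with no overlap. In Top1 cKO cells topotecan gave −0.43 (standard error 0.162, adjusted p = 0.910), and −0.42 with an adjusted p of 0.00104 with the block. There 13 alpha rows were called lower with the block, against 1.74% of all rows, and none without it, where 0.00837% of all rows were. At an unadjusted p under 0.05, 13 alpha rows were lower, against 627 of all 23893 rows, and DESeq2 called none. No alpha row was called in the interaction test of the 2 topotecan effects, in which the alpha rows had a median of −0.13 and adjusted p-values of 1.00 without and of at least 0.968 with the block. None had an unadjusted p under 0.05 there, and DESeq2 called none.

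**Figure D2:**
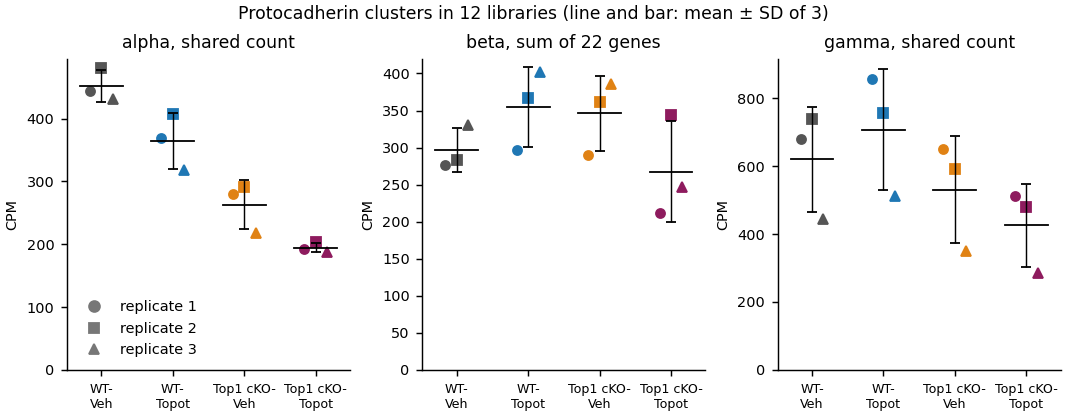
CPM (vertical axis) of the shared alpha count, the sum of the 22 beta genes and the shared gamma count in the 12 libraries, by group (horizontal axis). Symbols mark the replicate number, lines the mean and bars the SD of 3 libraries. The mean alpha count goes from 451 CPM in WT-Veh to 195 CPM in Top1 cKO-Topot cells with no overlap of groups, whereas beta and gamma groups overlap.

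Gamma protocadherins differed most between the 2 topotecan-treated groups. The shared gamma count was 679, 737 and 445 CPM in WT-Veh, 856, 756 and 511 CPM in WT-Topot, 650, 592 and 351 CPM in Top1 cKO-Veh, and 512, 479 and 287 CPM in Top1 cKO-Topot libraries. Replicate 3 was the lowest library in each group, and every pair of groups overlapped. Between libraries of the same number the order was the same in all 3: WT-Topot was above WT-Veh by 0.036 to 0.34 on the log2 scale, Top1 cKO-Veh was below WT-Veh by 0.061 to 0.34, and Top1 cKO-Topot was below WT-Topot by 0.66 to 0.83.

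Without the block no gamma row was called in any comparison. In Top1 cKO-Topot against WT-Topot cells the shared gamma count differed by −0.73 on the log2 scale (standard error 0.197, adjusted p = 0.0262). At an unadjusted p under 0.05 there were 22 gamma rows lower, against 1739 of all 23893 rows, and DESeq2 called none. With the block the difference was −0.75 (adjusted p = 1.23e-08) and 22 gamma rows were called, against 4.08% of all rows lower. Leaving out WT-Topot replicate 3 or Top1 cKO-Topot replicate 1 was enough for the call without the block, with log2 fold changes of −0.92 and −0.89. Over all members, 37 and 36 rows were then called lower in place of 15. Of all 23893 rows, 289 and 270 were called lower in these fits, in place of 246.

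Against WT-Veh, the shared gamma count of Top1 cKO-Topot cells differed by −0.54 on the log2 scale (standard error 0.215, adjusted p = 0.220), and by −0.55 with the block (adjusted p = 2.40e-04), with 22 gamma rows called lower against 4.02% of all rows. Without WT-Veh replicate 3 the value was −0.71 and was called without the block, and 32 members were called lower in place of 14. Of all 23893 rows, that fit called 580 lower in place of 289. For WT-Topot and Top1 cKO-Veh against WT-Veh the shared gamma count was called neither without nor with the block. The values were 0.19 (standard error 0.204) and −0.22 (standard error 0.229), with adjusted p-values of 0.285 and 0.154 with the block. Without Top1 cKO-Veh replicate 3 the second value was 0.00.

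Topotecan thus went with a higher shared gamma count in each WT pair and a lower one in each Top1 cKO pair. In Top1 cKO cells topotecan gave −0.31 without the block (standard error 0.230, adjusted p = 1.00) and −0.30 with it (adjusted p = 0.00965), where 20 gamma rows were called lower, against 1.74% of all rows. None was called without the block or by DESeq2, and none had an unadjusted p under 0.05. The interaction of drug and genotype was tested on all 12 libraries. No gamma row was called without the block, where 0.0377% of all rows were more negative and 0.398% less negative, no gamma row had an unadjusted p under 0.05 and DESeq2 called none. With the block 21 of 22 gamma rows were called, all with a more negative topotecan effect in Top1 cKO cells, against 1.53% of all rows, and the median over gamma rows was −0.50 against −0.026 over all genes. The shared gamma count itself, which all those rows hold, had an interaction of −0.49 and missed the threshold (adjusted p = 0.0136 with the block). The comparison of the 2 single treatments, WT-Topot against Top1 cKO-Veh cells, gave 0.47 for the shared alpha and 0.41 for the shared gamma count, called higher in WT-Topot only with the block (adjusted p = 3.04e-04 and 2.21e-04). There 14 alpha and 22 gamma rows were called higher with the block, against 2.93% of all rows, and none without it, where 0.293% were. At an unadjusted edgeR p under 0.05, 14 alpha rows and no gamma row were higher, against 1291 of all 23893 rows, and DESeq2 called none.

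The ratio of the shared gamma to the shared alpha count shows how the clusters parted. It was 1.53, 1.54 and 1.03 in WT-Veh libraries, 2.32, 1.86 and 1.61 in WT-Topot libraries, 2.32, 2.04 and 1.61 in Top1 cKO-Veh, and 2.66, 2.36 and 1.53 in Top1 cKO-Topot. Both single treatments were above WT-Veh without overlap, and in Top1 cKO-Topot the lowest library lay within the WT-Veh range. Each Top1 cKO-Topot library was above the WT-Veh library of its number.

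Over the alpha isoforms of at least 1 CPM, the excess had a median log2 fold change against WT-Veh of −1.53 in Top1 cKO-Topot, −0.67 after topotecan alone and −0.64 after deletion alone, 3 comparisons that share the WT-Veh libraries. Of the 34 alpha and gamma excesses of at least 1 CPM, 23 were negative after topotecan alone, 30 after deletion alone and 31 after both. Over all genes of at least 1 CPM, 47.6, 50.5 and 48.5% were negative. Excesses of a cluster share libraries and the subtracted count, so these are not separate observations. Pcdha3 is one of the isoforms with the most excess. Its excess was 22.8, 24.5 and 28.2 CPM in WT-Veh, 9.38, 12.9 and 14.1 CPM in WT-Topot, 10.95, 8.47 and 10.02 CPM in Top1 cKO-Veh, and 4.78, 4.32 and 5.25 CPM in Top1 cKO-Topot. No treated library reached the WT-Veh range, and the doubly treated group lay below both single treatments. Its log2 fold change against WT-Veh was −1.04 in WT-Topot (standard error 0.286, adjusted p = 0.0391), −1.36 in Top1 cKO-Veh (standard error 0.288, adjusted p = 0.0420) and −2.39 in Top1 cKO-Topot (standard error 0.335, adjusted p = 1.34e-04). Only the last passed the threshold of 0.01 without the block, and all 3 passed with it (adjusted p = 5.62e-04, 4.37e-06 and 5.37e-08).

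Pcdha5, which had 15.8, 16.2 and 15.0 CPM of excess in WT-Veh libraries, had 5.70 to 8.01 CPM in WT-Topot, 4.01 to 10.17 CPM in Top1 cKO-Veh and 3.06 to 4.65 CPM in Top1 cKO-Topot. It was called in the last without the block (log2 fold change −1.98, adjusted p = 0.00340) and in all 3 with it. Pcdha12, the last alternate isoform before the C-types, set the 2 single treatments apart. It had 12.3, 15.8 and 22.5 CPM in WT-Veh, 11.4, 12.9 and 11.6 CPM in WT-Topot, but 5.48, 5.50 and 3.51 CPM in Top1 cKO-Veh and 1.20, 3.99 and 5.68 CPM in Top1 cKO-Topot. Its log2 fold change was −0.46 in WT-Topot (adjusted p = 0.687, and 0.427 with the block) and −1.74 in Top1 cKO-Veh (adjusted p = 0.0450, and 3.72e-06 with the block). The difference between these groups was 1.27 (adjusted p = 0.0575, and 0.00262 with the block).

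Of the 14 alpha excesses, 4 were called lower in Top1 cKO-Topot against WT-Veh cells without the block (Pcdha3, Pcdha4, Pcdha5 and Pcdha12), where 1.25% of the rows of the split table were called lower. With Pcdhga1, 5 excesses were called in all, 2 without Top1 cKO-Topot replicate 2, 8 without WT-Veh replicate 1 and 10 without WT-Veh replicate 3. Of 23895 rows, 299 were called lower with all libraries, and 181, 348 and 565 in these fits. Filtering with filterByExpr left Pcdha4 and Pcdha12 above the threshold (adjusted p = 0.0124 and 0.0251), and leaving out Top1 cKO-Topot replicate 2 did so for Pcdha4, Pcdha5 and Pcdha12, and for Pcdhga1 (adjusted p = 0.0110, 0.0140, 0.0388 and 0.0184). Without Top1 cKO-Topot replicate 1, Pcdha12 had an adjusted p of 0.0142. In WT-Topot against WT-Veh no excess was called without the block, where 2.05% of the rows were lower and 0.691% higher, and DESeq2 called none. There 11 excesses were lower and 2 higher at an unadjusted p under 0.05, against 1726 and 1413 of 23895 rows. With the block Pcdha1, Pcdha3, Pcdha5 and Pcdha6 were called lower, against 4.99% of the rows of that table. In Top1 cKO-Veh against WT-Veh no excess was called without the block, where 0.134% of the rows were lower and 0.0502% higher. DESeq2 called Pcdha3, and 7 excesses were lower and 1 higher at an unadjusted p under 0.05, against 1148 and 940 of 23895 rows. With the block Pcdha3, Pcdha5 and Pcdha12 were called lower, against 2.92% of the rows. In Top1 cKO-Topot against WT-Veh 12 excesses were called lower with the block, 5 alpha and 7 gamma, against 4.16% of the rows. Topotecan in Top1 cKO cells gave 4 excesses called lower with the block, against 1.64% of the rows, and these were Pcdha4, Pcdhga1, Pcdhga3 and Pcdhgc4. Against WT-Topot, Top1 cKO-Topot cells had 9 called lower with the block, 4 alpha and 5 gamma, against 3.87% of the rows. Between the single treatments 4 were called higher in WT-Topot with the block (Pcdha12, Pcdhac2, Pcdhga12 and Pcdhgc3), against 2.76% of the rows.

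Pcdhga1, the first gamma isoform, had 21.7, 17.5 and 17.3 CPM of excess in WT-Veh, 13.4, 7.16 and 8.99 CPM in WT-Topot, 16.4, 11.7 and 9.02 CPM in Top1 cKO-Veh, and 3.59, 4.98 and 6.12 CPM in Top1 cKO-Topot. Each treated group lay below WT-Veh without overlap. The log2 fold change was −0.93 in WT-Topot (adjusted p = 0.130, and 0.00722 with the block), −0.60 in Top1 cKO-Veh (adjusted p = 0.653, and 0.155 with the block) and −1.94 in Top1 cKO-Topot (standard error 0.361, adjusted p = 0.00258).

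With the block, Pcdhga2, Pcdhga3 and Pcdhgb1 were also called lower in WT-Topot against WT-Veh cells, with log2 fold changes of −0.999, −0.74 and −1.51. Pcdhga12, the last alternate gamma isoform, went the other way, with 25.2, 24.1 and 26.5 CPM in WT-Veh and 35.5, 42.9 and 33.4 CPM in WT-Topot. Its log2 fold change of 0.57 was not called (adjusted p = 0.245, and 0.0553 with the block). In Top1 cKO-Topot it had 17.9, 18.6 and 12.2 CPM, and its log2 fold change of −1.19 against WT-Topot was the only gamma excess called there without the block (adjusted p = 0.00522), against 0.983% of the rows. That call was lost without WT-Topot replicate 2 or Top1 cKO-Topot replicate 2 (adjusted p = 0.0213 and 0.0119) and with filterByExpr (adjusted p = 0.0106).

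**Figure D3:**
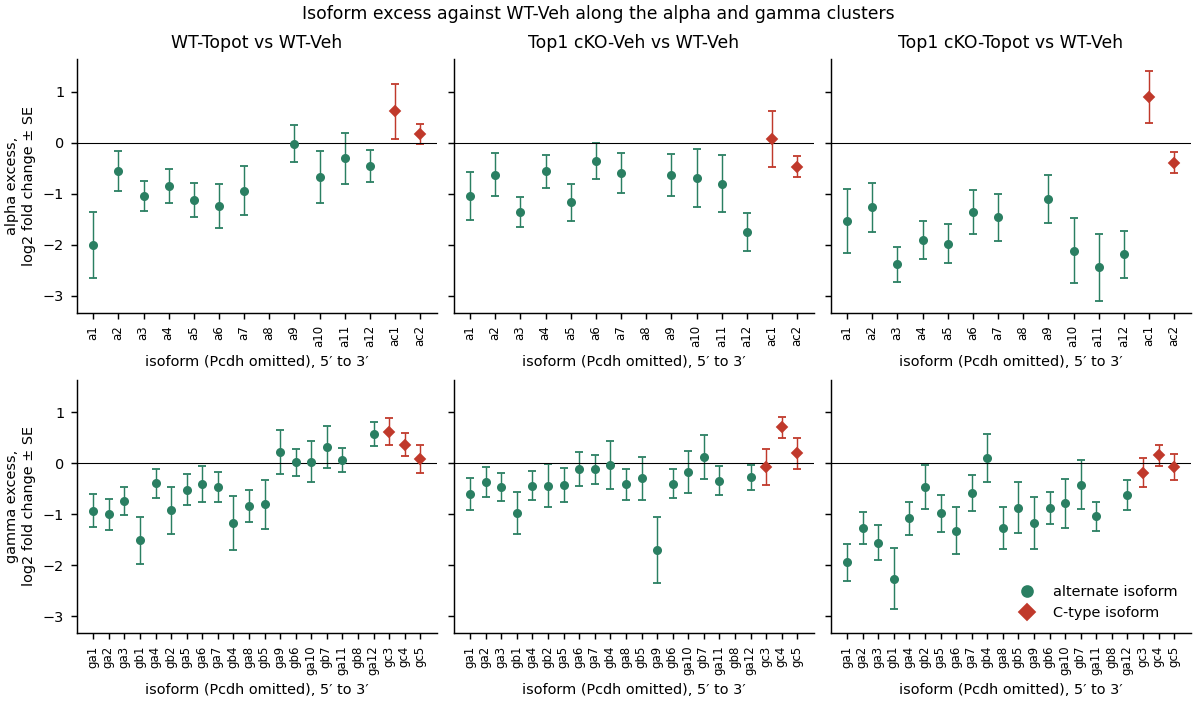
Log2 fold change of each isoform's excess against WT-Veh (vertical axis, with standard error) in order from the 5′ to the 3′ end of the alpha (top) and gamma (bottom) clusters (horizontal axis), for 3 comparisons that share the WT-Veh libraries. Circles are alternate and diamonds C-type isoforms, and Pcdha8 and Pcdhgb8, the rows with the lowest totals, have no point. In WT-Topot the values are mostly lower toward the 5′ end, as for Pcdha3 at −1.04 and Pcdhga1 at −0.93, and lie between 0.077 and 0.61 for the C-types. Pcdha1, at −2.004, rests on 3, 1 and 9 counts in the WT-Topot libraries.

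The order along the cluster is also the order of decreasing distance to the constant exons, and the topotecan effect followed it in WT cells. Over the 13 alpha isoforms of at least 1 CPM, Pearson's r between rank from the 5′ end and log2 fold change was 0.80 and Spearman's rho 0.77. For the 21 gamma isoforms both were 0.82. Without the C-type isoforms, an alternative chosen after seeing the data, rho was 0.63 over 11 alpha and 0.75 over 18 gamma isoforms. Pcdha1, the first alpha isoform, rests on few reads, with an excess of 21, 11 and 15 counts in WT-Veh and of 3, 1 and 9 counts in WT-Topot, where 3 counts are the floor. Its log2 fold change of −2.004 ranged from −3.28 to −1.44 when 1 library was left out, the first without WT-Topot replicate 3 and the second without WT-Topot replicate 2. These are correlations across isoforms that share libraries, splicing targets and the subtracted count, and are given as a description. In Top1 cKO-Veh against WT-Veh, rho was 0.27 for alpha and 0.68 for gamma, and without the C-type isoforms −0.14 and 0.52. In Top1 cKO-Topot against WT-Veh, rho was 0.19 and 0.70, and −0.34 and 0.56 without the C-types. For topotecan within Top1 cKO cells, rho was 0.33 over 13 alpha and 0.53 over 21 gamma isoforms. There the alpha value moved to 0.76 over the 10 isoforms of at least 3 CPM, and to −0.10 without the C-types. No test of the difference between any of these values was made.

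Pcdhac2, the last alpha isoform, held the largest share of the alpha excess. It had 128, 158 and 114 CPM in WT-Veh, 146, 176 and 125 CPM in WT-Topot, 104, 111 and 73.2 CPM in Top1 cKO-Veh, and 116, 110 and 80 CPM in Top1 cKO-Topot. WT libraries with and without topotecan overlapped, while Top1 cKO-Veh libraries lay below WT-Veh. The log2 fold changes against WT-Veh were 0.16 (standard error 0.194), −0.47 (standard error 0.208) and −0.39 (standard error 0.203), none of them called without or with the block. Pcdhac2 took 50.1, 54.9 and 41.8% of the summed alpha excess in WT-Veh libraries and 68.5, 66.3 and 58.1% in WT-Topot, and its mean share was 56.1% in Top1 cKO-Veh against 70.1% in Top1 cKO-Topot libraries. Pcdhac1 was low, at 2.004 to 7.17 CPM of excess in the 12 libraries, and was not called in any comparison as an excess.

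Pcdhgc3 had 222, 140 and 91.0 CPM of excess in WT-Veh, 316, 214 and 162 CPM in WT-Topot, 225, 136 and 69.1 CPM in Top1 cKO-Veh, and 192, 122 and 84.8 CPM in Top1 cKO-Topot. Each WT-Topot library was above the WT-Veh library of its number. The log2 fold change was 0.61 (standard error 0.266, adjusted p = 0.297), called without WT-Veh replicate 1 (0.99, adjusted p = 0.00547) and with the block (0.65, adjusted p = 5.68e-05), the single excess called higher there, against 3.21% of the rows. Pcdhgc3 was highest in replicate 1 and lowest in replicate 3 of each group, as the summed astrocyte markers were, and those markers were lower in WT-Topot than in WT-Veh libraries. Their part in the Pcdhgc3 values was not tested.

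Pcdhgc4 had 76.1, 82.8 and 61.1 CPM in WT-Veh, 70.4, 131 and 80.9 CPM in WT-Topot, 119, 142 and 98.2 CPM in Top1 cKO-Veh, and 89.6, 84.7 and 70.4 CPM in Top1 cKO-Topot. The 3 Top1 cKO-Veh libraries were above all WT-Veh and all Top1 cKO-Topot libraries. The log2 fold change in Top1 cKO-Veh against WT-Veh was 0.70 (standard error 0.205), not called without the block (adjusted p = 0.175) and called with it (adjusted p = 5.46e-05). It was the single excess called higher in that comparison, against 2.62% of the rows. Adding topotecan to Top1 cKO cells gave −0.54 (adjusted p = 0.762, and 9.95e-04 with the block). Neuron markers summed to 6325, 6760 and 7293 CPM in Top1 cKO-Veh against 5577, 7043 and 6512 CPM in WT-Veh, which overlap.

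Both isoforms were called in the interaction test with the block, Pcdhgc3 at −0.70 (adjusted p = 0.00680) and Pcdhgc4 at −0.86 (adjusted p = 0.00418), against 1.36% of the rows of the split table. Neither was called without it (adjusted p = 0.934 and 0.260), and DESeq2 called none. There 2 gamma excesses were lower and 1 higher at an unadjusted p under 0.05, against 824 and 1137 of 23895 rows. Pcdhgc5 had 118, 157 and 74.9 CPM in WT-Veh and overlapped all other groups, with log2 fold changes against WT-Veh of 0.077 after topotecan, 0.19 after deletion and −0.074 after both. The C-types together took 57.5, 53.0 and 47.0% of the gamma excess in WT-Veh and 70.9, 64.2 and 59.3% in WT-Topot libraries, with no overlap. Their share was 67.5, 63.6 and 55.4% in Top1 cKO-Veh and 76.3, 61.6 and 68.7% in Top1 cKO-Topot libraries, which overlap, and replicate 2 was lower with topotecan.

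**Figure D4:**
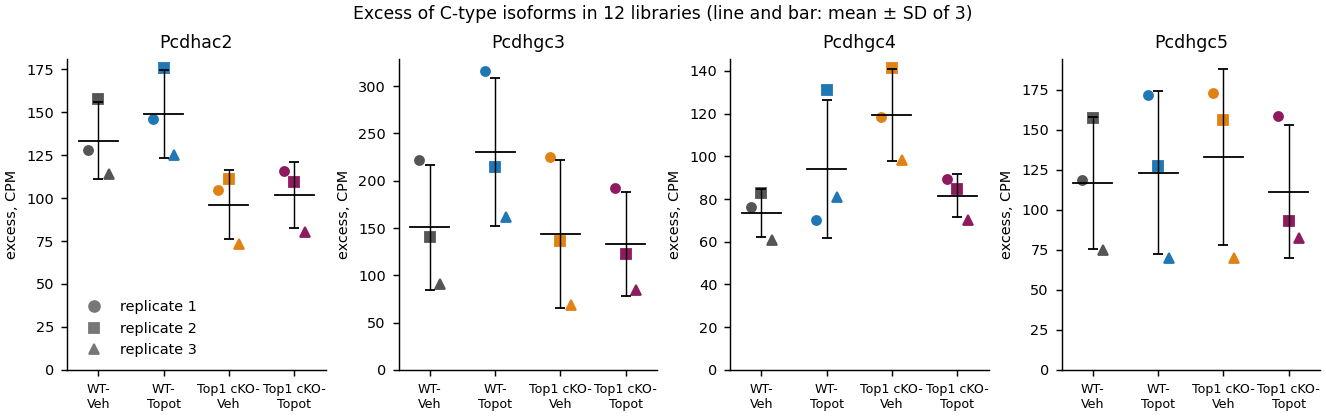
Excess CPM (vertical axis) of Pcdhac2, Pcdhgc3, Pcdhgc4 and Pcdhgc5 in the 12 libraries, by group (horizontal axis). Symbols mark the replicate number, lines the mean and bars the SD of 3 libraries. Pcdhgc4 is higher in Top1 cKO-Veh (98.2 to 142 CPM) than in WT-Veh libraries (61.1 to 82.8 CPM), and Pcdhgc3 is higher in WT-Topot than in the WT-Veh library of the same number.

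Of the 22 beta genes, 4 were called higher in Top1 cKO-Veh than in WT-Veh cells with the block, against 2.60% of all rows. Pcdhb9 was called lower in Top1 cKO-Topot than in WT-Topot cells without the block, against 1.03% of all rows. The beta sum was 277, 284 and 331 CPM in WT-Veh, 296, 367 and 402 CPM in WT-Topot, 290, 362 and 386 CPM in Top1 cKO-Veh, and 212, 343 and 247 CPM in Top1 cKO-Topot libraries, with overlap between all groups. Between libraries of the same number, WT-Topot was above WT-Veh by 0.10 to 0.37 on the log2 scale and Top1 cKO-Veh above WT-Veh by 0.068 to 0.35. Top1 cKO-Topot differed from Top1 cKO-Veh by −0.65 to −0.075 and from WT-Topot by −0.70 to −0.095, whereas against WT-Veh the sign varied. The beta genes are near-identical copies in places, and reads that fit more than one may have been shared among them or lost, so a value for a single gene is uncertain. Whether counting used strand is not stated, and antisense transcripts annotated in the clusters could add reads.

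Pcdhb17 had 23.4, 14.5 and 19.0 CPM in WT-Veh, 26.8, 26.1 and 29.6 CPM in WT-Topot, 34.8, 36.4 and 46.6 CPM in Top1 cKO-Veh, and 22.3, 40.9 and 28.4 CPM in Top1 cKO-Topot. All Top1 cKO-Veh libraries were above those of both WT groups. The same held for Pcdhb14, Pcdhb18 and Pcdhb20, which also lie toward the 3′ end of the cluster. In WT-Veh libraries Pcdhb14 had 7.90, 8.33 and 9.22 CPM, and in Top1 cKO-Veh libraries 16.4, 22.7 and 20.04 CPM, the largest fold of any beta gene.

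The log2 fold changes in Top1 cKO-Veh against WT-Veh were 1.23 for Pcdhb14, 1.03 for Pcdhb17, 0.998 for Pcdhb20 and 0.89 for Pcdhb18 (standard errors 0.307, 0.264, 0.262 and 0.262). At an unadjusted p under 0.05, 4 beta genes were higher and 1 lower, against 932 and 1152 of all 23893 rows. None of the 4 named genes was called without the block (adjusted p = 0.0888, 0.1, 0.115 and 0.183), and DESeq2 called none. All 4 were called with it (adjusted p = 2.90e-04, 3.65e-05, 1.00e-04 and 0.00342), against 2.60% of all rows higher. The 4 genes, grouped after their values were seen, took 25.3, 18.2 and 18.3% of the beta counts in WT-Veh, 37.0, 36.3 and 34.2% in Top1 cKO-Veh, and a mean of 23.0% in WT-Topot and 33.8% in Top1 cKO-Topot. Their summed level was 69.9, 51.7 and 60.5 CPM in WT-Veh and 107, 131 and 132 CPM in Top1 cKO-Veh, but 69.7, 81.3 and 93.8 CPM in WT-Topot and 72.1, 119 and 81.3 CPM in Top1 cKO-Topot, which overlap. Under topotecan the larger share in Top1 cKO cells thus stood beside a lower sum of all beta genes, and the rise in Top1 cKO-Veh is what the 4 genes were grouped for.

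Pcdhb9 went with genotype in the opposite direction. It had 38.0, 43.8 and 59.3 CPM in WT-Veh, 49.3, 56.4 and 52.7 CPM in WT-Topot, 25.8, 32.8 and 34.1 CPM in Top1 cKO-Veh, and 14.3, 31.6 and 24.9 CPM in Top1 cKO-Topot. No Top1 cKO library reached the lowest WT library. In Top1 cKO-Topot against WT-Topot its log2 fold change was −1.16 (standard error 0.251, adjusted p = 0.00562), where 1.03% of all rows were called lower. Pcdhb9 was the only beta gene called in any comparison without the block. That call was lost without Top1 cKO-Topot replicate 1 (−0.90, adjusted p = 0.0301), with filterByExpr (adjusted p = 0.0172) and with all 12 libraries in one fit (adjusted p = 0.0114). Against WT-Veh the values were −0.96 in Top1 cKO-Topot (adjusted p = 0.0703, and 7.49e-04 with the block) and −0.60 in Top1 cKO-Veh (adjusted p = 0.444, and 0.0259 with the block). Pcdhb7 was also called lower in Top1 cKO-Topot against WT-Topot with the block, against 4.08% of all rows, at −0.98 (adjusted p = 0.0449, and 0.00115 with the block). In WT-Topot against Top1 cKO-Veh, Pcdhb9 at 0.77 and Pcdhb5 at 0.83 were called higher with the block, against 2.93% of all rows. Pcdhb14, at −1.01, was the single member called lower there, against 4.80% of all rows.

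Among the other beta genes of at least 5 CPM, the lowest values in Top1 cKO-Veh against WT-Veh after Pcdhb9 were −0.44 for Pcdhb4 and −0.36 for Pcdhb3, and in Top1 cKO-Topot against WT-Veh −0.74 for Pcdhb12 and −0.70 for Pcdhb7. The highest in the latter were 0.70 for Pcdhb17, 0.67 for Pcdhb18 and 0.54 for Pcdhb8. None of these was called with or without the block.

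Per kb of annotated exon, Pcdhb9 was the highest beta gene in WT-Veh, at 15.4 ± 3.60 CPM per kb (SD, n = 3), followed by Pcdhb7 at 7.44 ± 2.82 and Pcdhb17 at 5.80 ± 1.37, which do not differ beyond their SDs. In Top1 cKO-Veh the order at the top was Pcdhb17 at 12.01 ± 1.96, Pcdhb20 at 10.5 ± 1.56 and Pcdhb9 at 10.1 ± 1.45 CPM per kb, 3 neighbours within their SDs of each other. Pcdhb1, at the 5′ end, was 0 to 2.33 CPM in the 12 libraries, near the floor of counting, and no fold is given.

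After topotecan alone, 17 of the 22 beta genes had a positive log2 fold change in WT cells, with a median of 0.24 against 0.028 over all genes, and none was called by edgeR or DESeq2 or had an unadjusted p under 0.05. The largest were Pcdhb5 at 0.53 (standard error 0.281), Pcdhb17 at 0.53 and Pcdhb10 at 0.50. The lowest of at least 5 CPM were Pcdhb6 at −0.21, Pcdhb3 at −0.15 and Pcdhb2 at −0.048. In Top1 cKO cells topotecan gave a negative value in 20 of 22, with a median of −0.33. None was called with or without the block or by DESeq2. At an unadjusted p under 0.05, 1 was lower, against 627 of all 23893 rows. The interaction was negative in 21 of 22 beta genes, with a median of −0.57 against −0.026 over all genes. None was called, and 4 were lower at an unadjusted p under 0.05, against 873 of all 23893 rows.

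**Figure D5:**
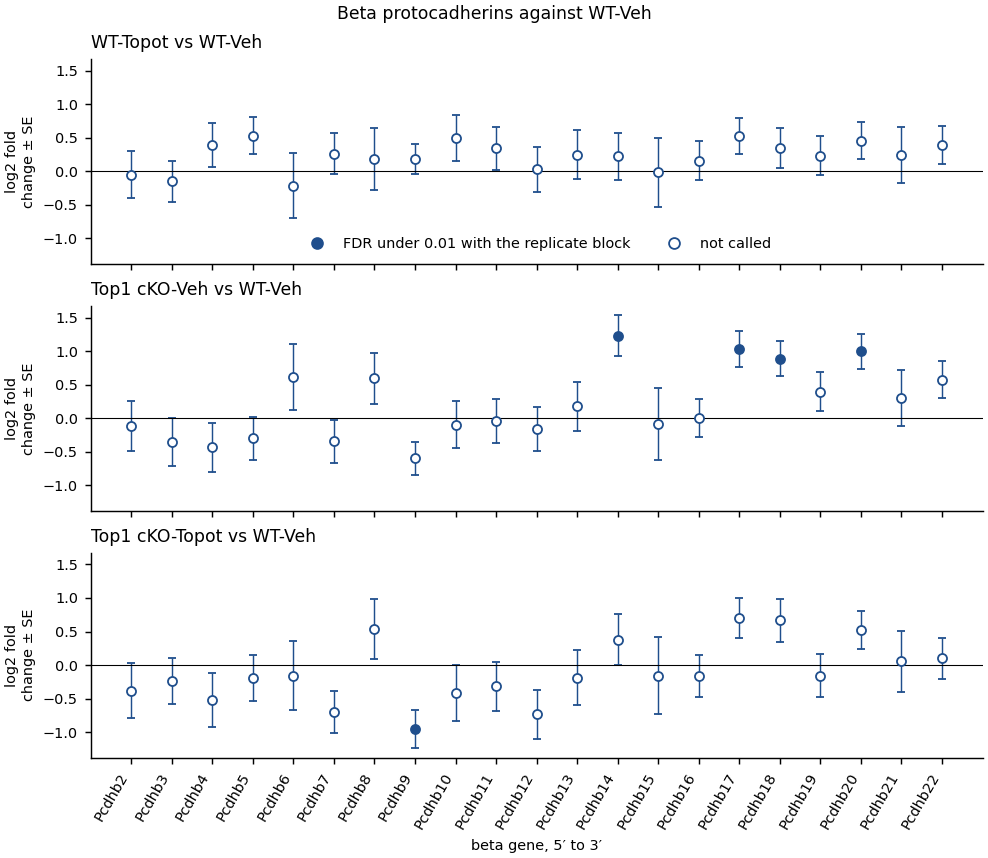
Log2 fold change against WT-Veh (vertical axis, with standard error) of 21 beta genes in order from the 5′ to the 3′ end (horizontal axis), for 3 comparisons that share the WT-Veh libraries. Filled points passed an FDR of 0.01 with the replicate block. Pcdhb14, Pcdhb17, Pcdhb18 and Pcdhb20 stand between 0.89 and 1.23 in Top1 cKO-Veh, and Pcdhb9 at −0.60 there and −0.96 in Top1 cKO-Topot.

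The row of the alpha-gamma transcript, Pcdha4-g, had 120, 114 and 87.5 CPM in WT-Veh, 121, 110 and 82.2 CPM in WT-Topot, 112, 90.2 and 59.1 CPM in Top1 cKO-Veh, and 73.7, 68.7 and 49.8 CPM in Top1 cKO-Topot. Only Top1 cKO-Topot lay below WT-Veh without overlap. Its log2 fold change was −0.72 there (standard error 0.214, adjusted p = 0.0679, and 6.91e-04 with the block), between those of the shared alpha and gamma counts. The count was 14.2 to 19.7% of the shared gamma count, and which exons it was taken over is not given.

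Genes that act with the protocadherins were followed in 4 lists, of 11 cohesin and CTCF genes, 12 repressors and methylation genes, 7 genes of the proteolysis that cuts protocadherins at the membrane and 19 cytoplasmic partners. Without the block, 3 cytoplasmic kinases were lower in WT-Topot against WT-Veh: Prkce and Prkca, protein kinases C, at −1.98 and −1.77, and Fyn, a Src-family kinase, at −0.89 (adjusted p = 2.03e-06, 2.19e-05 and 0.00975), against 2.04% of all rows. In Top1 cKO-Topot against WT-Topot these 3 were higher, at 1.39, 1.30 and 1.05, where 1.46% of all rows were called higher and 1.03% lower. Wasf1, a subunit of the WAVE complex that binds protocadherin tails and drives actin branching, was lower there at −1.07 (adjusted p = 2.15e-04), as was Ncstn, the γ-secretase subunit nicastrin, at −1.02 (adjusted p = 0.00366).

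No cohesin, CTCF, repressor or methylation gene was called by edgeR without the block in any comparison. In Top1 cKO-Veh against WT-Veh, 1 cohesin gene was lower and 1 higher and 2 repressors were lower at an unadjusted p under 0.05. At that level 1152 of all 23893 rows were lower and 932 higher, and DESeq2 called 1 repressor. In Top1 cKO-Veh against WT-Veh, the block added Stag1, a cohesin subunit, at 0.83 (adjusted p = 0.00536 with the block), and lower values of Mau2, which loads cohesin, at −0.55 (adjusted p = 0.00322) and of Ehmt2, a histone H3 lysine methyltransferase, at −0.82 (adjusted p = 4.02e-08). That is 1 higher and 2 lower of 23 genes, against 2.60% and 2.95% of all rows. Ctcf was not called in any comparison. The summed cohesin and CTCF list stood at 711 to 832 CPM in WT-Veh and 707 to 805 CPM in Top1 cKO-Veh libraries. Over all 49 genes of the 4 lists, the block gave 4 lower and 3 higher in Top1 cKO-Topot against WT-Veh, where 4.02% of all rows were lower and 3.34% higher, 7 and 6 against WT-Topot, where the shares were 4.08% and 4.60%, and 3 and 5 in the interaction, where they were 1.53% and 2.44%.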

How the data were processed

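Poly(A) RNA was sequenced in paired ends, in 12 libraries. Per the methods, the authors filtered reads (TagDust), ran TopHat against mm9, removed ribosomal reads and deposited raw counts over RefSeq exons summed by gene symbol. The counting program, its use of strand and the software versions are not given in the sources used here.

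The 6 libraries of any 2 groups were tested together by the quasi-likelihood test of edgeR 4.0.16 (R 4.3.3, limma 3.58.1), TMM scaling and no filter, with Benjamini-Hochberg adjustment over all 23893 rows and an FDR of 0.01. The interaction, the topotecan effect in Top1 cKO minus that in WT cells, used all 12 libraries. A second table of 23895 rows held the shared and excess counts in place of the alpha and gamma rows. CPM are TMM-scaled, standard errors are the log2 fold change over the root of F, and 5182 rows had no count. Alternatives were DESeq2 1.42.0, its size factors, filterByExpr, all 12 libraries in one fit, leaving out each library, and the replicate number as a block. On simulated data 192 of 200 genes changed by 2 on the log2 scale, more than most members here, were recovered for WT-Topot against WT-Veh, with 1 false call. Smaller changes across genes were not simulated. The simulated counts had a fixed dispersion and no effect of replicate number, and genes of few counts were not changed. The recovery therefore does not apply to members of few counts.

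Replicates of a group were cultures by the study's captions (n = 3), and the labels number them 1 to 3 without saying whether a number marks one preparation of cells across groups. Over 13720 genes, the deviations of same-numbered libraries from their group means correlated at 0.261 to 0.485 in all 18 pairs, and those of other pairs at −0.384 to −0.049. Deviations from a group mean cancel within the group, so the negative values follow from the positive ones and are not separate evidence. On the positive values the numbers were taken to pair the samples in the block, from the data and not the labels. The main test did not use these pairs, and results with the block are given beside it.

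The rule for named members took those called in a comparison with or without the block, the C-type isoforms, Pcdha4-g, the most abundant, and the 3 lowest and 3 highest changes against WT-Veh of at least 5 CPM. As over 30 qualified, the others are given by counts and ranges. The members and lists were chosen with earlier results of these data known. Order along a cluster comes from RefSeq names, and no sequence is shown.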

Additional observations from a re-analysis of the deposited data

Results flagged for a closer look

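The effect of topotecan differed between the genotypes for 21 of 22 gamma rows in the interaction test with the replicate block, each more negative in Top1 cKO cells, against 1.53% of all rows. The shared gamma count, which makes up most of each row, missed the threshold in the same test (adjusted p = 0.0136 with the block). These rows share most of their reads and are close to 1 measurement. The excess of Pcdhgc3 differed by −0.70 and that of Pcdhgc4 by −0.86 in the same test. None of these differences was called without the block.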

How the results depend on the processing

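Of the results that answer a comparison, 702 values under an alternative kept their direction and call, 49 counts or correlations moved by over 1.5 times, 11 values passed the threshold and 4 changed sign. With the replicate block the member rows called went from 0 to 14 lower and 4 higher in Top1 cKO-Veh against WT-Veh, from 0 to 33 lower in Top1 cKO-Topot against Top1 cKO-Veh, from 14 to 38 lower in Top1 cKO-Topot against WT-Veh, from 0 to 1 lower and 38 higher in WT-Topot against Top1 cKO-Veh, from 15 to 39 lower in Top1 cKO-Topot against WT-Topot, and from 0 to 21 lower in the interaction. Excesses called with the block were, in the order of these comparisons, 3 lower and 1 higher, 4 lower, 12 lower, 4 higher, 9 lower and 2 lower, and in WT-Topot against WT-Veh 8 lower and 1 higher. The block brought past the threshold the shared alpha count in Top1 cKO-Veh against WT-Veh (−0.78), in topotecan-treated against vehicle-treated Top1 cKO cells (−0.42) and between the 2 single treatments (0.47), and the shared gamma count in the last 2 (−0.30 and 0.43), in Top1 cKO-Topot against WT-Veh (−0.55) and against WT-Topot (−0.75). It changed no other call of a shared count. In Top1 cKO-Veh against WT-Veh, DESeq2 called 14 member rows lower, against 160 of 23893 rows. In the split table it called 1 excess and the shared alpha count (−0.78) lower there, against 147 of 23895 rows. In Top1 cKO-Topot against WT-Topot it called 2 excesses lower, against 272 of 23895 rows. With filterByExpr 3 excesses were called in Top1 cKO-Topot against WT-Veh and 0 against WT-Topot.

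Without the C-type isoforms, rho along the alpha cluster turned to −0.14 in Top1 cKO-Veh to −0.34 for Top1 cKO-Topot against WT-Veh and to −0.10 for topotecan in Top1 cKO cells, where a minimum of 3 CPM gave 0.76. Leaving out each library in turn gave 0 to 1 excess lower and 0 to 1 higher in WT-Topot against WT-Veh, and 0 to 1 higher in WT-Topot against Top1 cKO-Veh. The shared gamma count ranged from −0.41 to 0.00 in Top1 cKO-Veh against WT-Veh. In Top1 cKO-Topot against WT-Veh, leaving out each library gave 14 to 32 member rows, 2 to 10 excesses and a shared gamma count of −0.71 to −0.30. These fits called 192 to 580 of all 23893 rows lower, and 181 to 565 of 23895 rows of the split table. Against WT-Topot, leaving out each library gave 15 to 37 member rows, 1 to 3 excesses and a shared gamma count of −0.92 to −0.51. There were 3 excesses without WT-Topot replicate 1, and 2 when WT-Topot replicate 3 was left out, or Top1 cKO-Topot replicate 1 or 3. These fits called 157 to 348 of all rows lower, and 147 to 338 rows of the split table. With the block the genes called lower and higher, of 49 partner and regulator genes, were 5 and 2 in WT-Topot (5.0 and 3.24% of all rows) and 3 and 3 in Top1 cKO-Veh against WT-Veh (2.95 and 2.60%), 3 and 0 for topotecan in Top1 cKO cells (1.74% lower), 4 and 3 in Top1 cKO-Topot against WT-Veh (4.02 and 3.34%), 6 and 9 between the single treatments (4.80 and 2.93%), 7 and 6 in Top1 cKO-Topot against WT-Topot (4.08 and 4.60%), and 3 and 5 in the interaction (1.53 and 2.44%). The cause of these changes was not tested. Depth limits the excesses, of which 9 of 36 had a mean under 5 CPM.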
